A study of Mus musculus with 6 samples.

Results

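The genes described here are 10 components of cAMP and DARPP-32 signalling in striatal projection neurons, namely Ppp1r1b, Adcy5, Gnal, Gng7, Pde10a, Pde1b, Pde7b, Arpp21, Arpp19 and Ptpn5. They were chosen by symbol, and each symbol matched 1 of the 47062 Ensembl genes in the authors' table. RNA had been sequenced from the striatum, subventricular zone included, of mice at postnatal day 0 on a mixed background of C57BL/6J, 129S6 and CD1. The mutant group, Drd2-Cre;Sp9Flox/Flox, gave 3 libraries, and the littermate control group, Sp9Flox/Flox without Cre, gave 3 libraries. Both groups thus carried floxed Sp9, the gene of a zinc finger transcription factor, and only the mutants also carried Cre driven by Drd2, the gene of the dopamine D2 receptor. No group carried Drd2-Cre with unfloxed Sp9, so the loss of Sp9 and the presence of Cre cannot be told apart. The labels do not say whether a library held 1 animal or several, and p-values therefore measure the spread between these libraries.

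In projection neurons, dopamine and adenosine receptors act through G proteins on adenylyl cyclase, which makes cAMP, and phosphodiesterases break cAMP down. cAMP activates protein kinase A (PKA), which phosphorylates DARPP-32, the product of Ppp1r1b, and turns it into an inhibitor of protein phosphatase 1. The pathway serves both classes of projection neuron: direct pathway cells raise cAMP through the D1 receptor (Drd1), and indirect pathway cells through the adenosine receptor Adora2a, against the D2 receptor (Drd2).

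Sp9 itself had an FPKM (fragment count scaled to transcript length and sequencing depth) of 8.37, 7.93 and 9.67 in mutant replicates 1 to 3, against 20.1, 19.0 and 17.3 in control replicates 1 to 3 (limma adjusted p = 0.0567, and 0.00635 on the authors' scaled counts). Adora2a, a defining gene of indirect pathway cells, had 3.95, 5.36 and 3.02 FPKM in the mutants, against 47.6, 41.1 and 44.1 FPKM in the controls. Drd2 had 45.1, 45.9 and 42.1 FPKM in the mutants and 48.5, 42.0 and 44.5 FPKM in the controls. All 10 marker genes of projection neurons in general that were looked up, among them Bcl11b and Foxp1, were above 0 in every library. Library totals of the authors' scaled counts ran from 18714356 to 19274505, and those of FPKM from 1295150 to 1729930. Totals of scaled values do not give the sequencing depth. Control replicate 3 had 16.7 FPKM of the Y-linked gene Ddx3y and 0.0604 FPKM of Xist, a male pattern, against at most 0.0335 FPKM of Ddx3y and at least 186 FPKM of Xist in each of the other libraries. The only library with a male pattern was thus a control, so sex was not balanced between the groups. The part of sex in the differences was not tested.

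All 10 genes were well detected in the newborn striatum. Their scaled counts lay between 1827 and 19079 in every library, and their mean FPKM lay between the 72.9 and the 97.5 percentile of the 16666 genes that passed the filter (mean FPKM 0.5 or more). By mean FPKM over the 6 libraries, Arpp21 was highest (344 ± 36.3, SD, n = 6). Below it came Gng7 (206 ± 27.5), Ppp1r1b (194 ± 16.9) and Gnal (182 ± 13.1), whose ranges over the libraries overlapped from one to the next. Pde10a followed (128 ± 14.4), apart from its neighbours in both directions. Arpp19 (72.8 ± 2.60) and Pde1b (68.5 ± 7.14) overlapped, as did Ptpn5 (49.2 ± 5.28) and Pde7b (35.8 ± 5.33), and Adcy5 was lowest (25.0 ± 2.45).

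Among their relatives, the genes stood at different ranks of FPKM level. Pde10a and Pde1b were the first and second of 18 phosphodiesterase genes with a row, ahead of Pde4b (43.9 ± 9.45 FPKM, SD, n = 6), and Pde7b was at rank 5, within the range of Pde7a (37.5 ± 3.17). Adcy5 was second of 10 adenylyl cyclase genes, below Adcy1, a calmodulin-stimulated cyclase (98.0 ± 11.0 FPKM). Gng7 was second of 7 listed G protein gamma subunit genes, below Gng2 (266 ± 14.5 FPKM), and Gnal at rank 3 of 7 listed alpha subunit genes, below Gnao1 (337 ± 20.2 FPKM) and Gnas (267 ± 14.1 FPKM). Ppp1r1b was first of 4 listed inhibitors of protein phosphatase 1, with Ppp1r1a next (29.9 ± 2.16 FPKM). Arpp19 lay above its close relative Ensa (65.0 ± 1.03 FPKM).

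**Figure D1:**
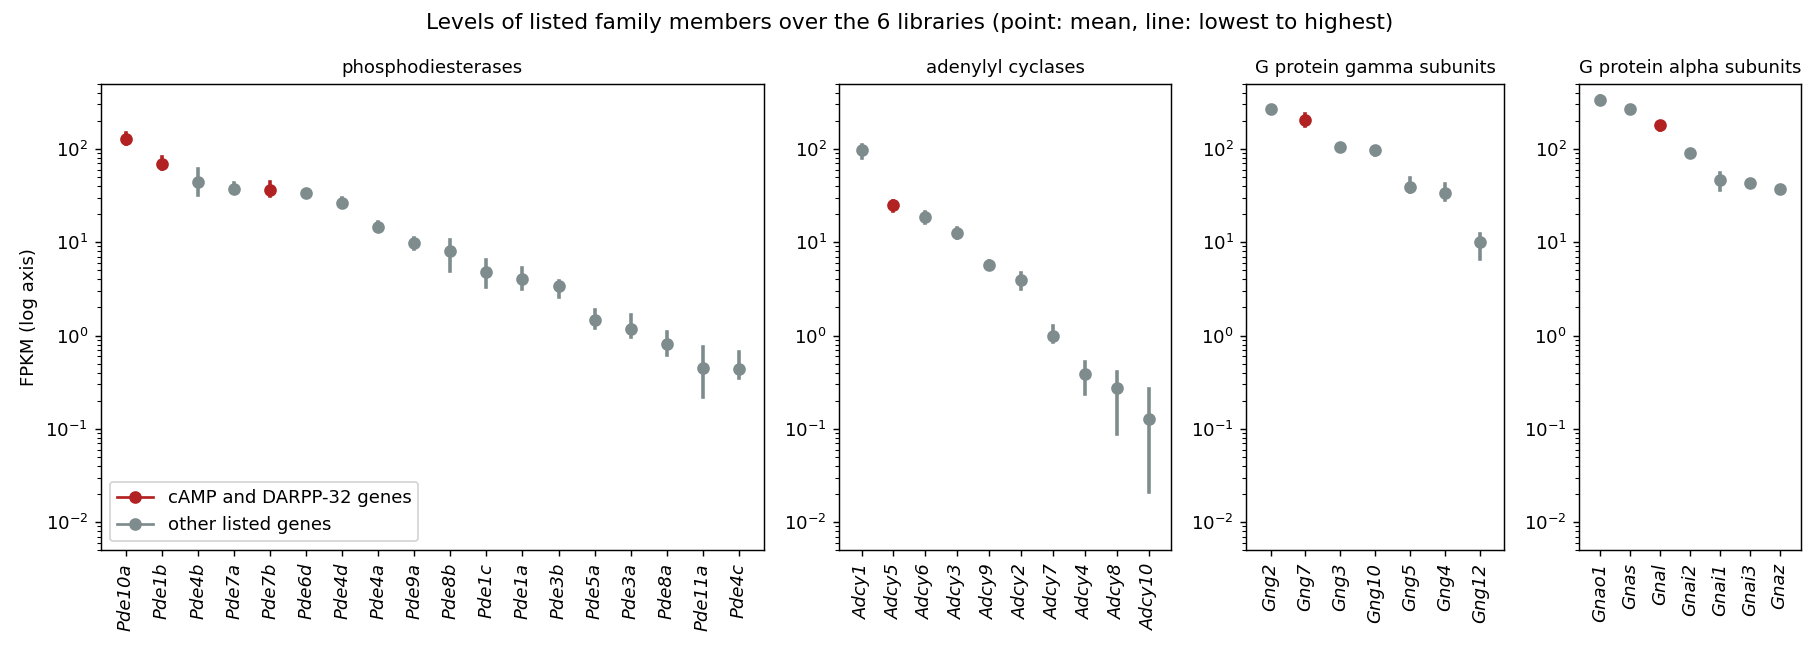
Level in FPKM (log axis) of the listed genes of 4 families over all 6 libraries, with the point at the mean and the line from the lowest to the highest library; red marks the cAMP and DARPP-32 genes and grey the others. Pde10a (128 FPKM) stood at the top of the phosphodiesterases, whereas Adcy5 (25.0 FPKM) lay below Adcy1 (98.0 FPKM).

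The comparison of mutant with control asks whether the shared signalling machinery of projection neurons differed when Drd2-Cre acted on floxed Sp9. None of the 10 genes passed an adjusted p of 0.05 (limma with Benjamini-Hochberg adjustment over all 16666 genes), where 0.06% of all genes did, 0.024% in the lower direction. At an unadjusted p under 0.05, 2 of the 10 passed, Gng7 and Gnal, against 5.65% of all genes. Both were lower in the mutants, with groups that did not overlap, a pattern that 6.05% of all genes showed in that direction. The estimate was below 0 for 9 of the 10 genes and above 0 for Adcy5. Over all genes 50.1% of estimates were below 0, but among the 5390 genes averaging 20 FPKM or more, a level picked after seeing the data, 59.4% were, and 8.14% of these had non-overlapping groups with the mutants lower. The median log2 fold change of the 10 was -0.13, against -0.00 over all genes. Taken gene by gene, without adjustment over the 10, no 95% interval had a lower end below 0.69-fold or an upper end above 1.25-fold. Adora2a, a gene of indirect pathway cells, stood at 0.10-fold (0.07 to 0.14). The intervals concern whole tissue and do not bound a change confined to 1 class of projection neuron. RNA from whole tissue cannot tell fewer cells of a type from less RNA per cell.

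**Figure D2:**
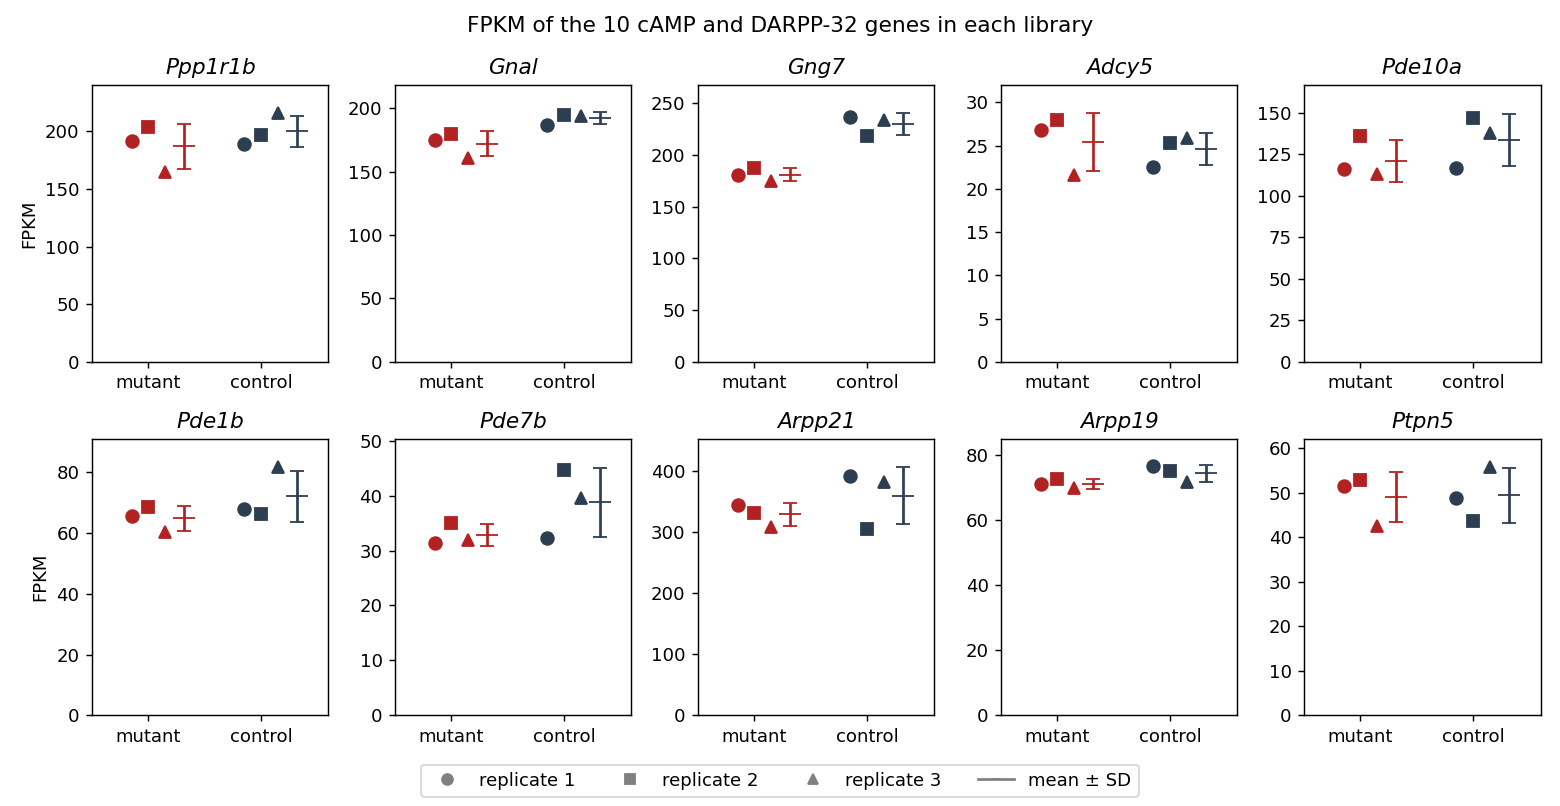
FPKM of each of the 10 genes in each library, mutant at left and control at right, with symbols for replicates 1 to 3 and the mean ± SD (n = 3) beside them; each axis starts at 0. The groups lay apart for Gng7 (175 to 187 in mutants, 218 to 237 in controls) and Gnal (161 to 180 in mutants, 187 to 195 in controls), and overlapped for the other 8.

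The G protein and its cyclase come first in the signalling order. Gnal (ENSMUSG00000024524; GRCm38 chromosome 18, 67088216 to 67226792, plus strand) encodes the olfactory-type alpha subunit that couples the receptors Drd1 and Adora2a to adenylyl cyclase. It had 175, 180 and 161 FPKM in mutant replicates 1 to 3, against 187, 195 and 194 FPKM in control replicates 1 to 3. All 3 mutant libraries lay below all 3 controls, with means of 172 ± 10.1 FPKM in mutants and 192 ± 4.70 FPKM in controls (SD, n = 3 each). Its estimated log2 fold change was -0.16 ± 0.05 (SE), with a limma p of 0.0250 unadjusted and 0.833 adjusted. Mppe1 lies opposite Gnal and shares 852 exon bases with it, but its highest scaled count of 753 was small beside Gnal's.

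Gng7 (ENSMUSG00000048240; chromosome 10, 80948624 to 81014945, minus strand) encodes the gamma subunit found with the Gnal product in the striatum. Its FPKM was 181, 187 and 175 in the mutants, against 237, 218 and 234 in the controls. The gap between the groups was wider than the spread within either, and the mutant mean of 181 ± 6.02 FPKM was 79.0% of the control mean of 230 ± 10.2 FPKM (SD, n = 3 each). The log2 fold change was -0.34 ± 0.05 (SE; 95% interval -0.46 to -0.22), the largest of the 10 in size. With limma its unadjusted p was 0.000538 and its adjusted p 0.289, and on the scaled counts the adjusted p was 0.0893, so it passed on neither measure. With 1 library left out at a time its adjusted p lay between 0.282 and 0.813. An exact permutation test (two-sided) gave p = 0.1, which is as small as 3 against 3 libraries allow.

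Adcy5 (ENSMUSG00000022840; chromosome 16, 35154877 to 35305738, plus strand), the main adenylyl cyclase of projection neurons, had 26.8, 27.9 and 21.6 FPKM in the mutants, against 22.5, 25.3 and 25.9 FPKM in the controls. The groups overlapped fully, and the mutants held both the highest and the lowest library. The log2 fold change was 0.04, with a 95% interval from -0.23 to 0.32 (limma adjusted p = 0.977), and it ran from -0.03 to 0.15 with 1 library left out. Within a library, the ratio of Gng7 to Gnal FPKM was 1.04, 1.04 and 1.09 in the mutants, against 1.27, 1.12 and 1.21 in the controls. The ratio of Gng7 to Adcy5 was 6.77, 6.73 and 8.12 in the mutants, against 10.5, 8.61 and 9.05 in the controls. The groups did not overlap in either ratio, though the nearest libraries were close for Gng7 to Gnal (1.09 and 1.12). The ratio of Gnal to Adcy5 was 6.53, 6.46 and 7.42 in the mutants and 8.30, 7.71 and 7.50 in the controls. There too the groups did not overlap, and the nearest mutant and control libraries were close. These ratios were computed after the levels were seen and carry no test.

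The promoter windows of Gng7 and Adcy5 are shown because these genes form one signalling unit and stood furthest apart in fold change. Proteins of the Sp family bind GC boxes, and GGGCGG was therefore searched on both strands, together with TGACGTCA, the cAMP response element, and its core TGACG, which lies inside the full element. The RefSeq windows used here (GRCm38.p6) cover 8 of the 10 genes, all but Ppp1r1b and Gnal. Capitals mark GGGCGG or its complement CCGCCC.
Gng7, chr10:81014876-81015175, minus strand: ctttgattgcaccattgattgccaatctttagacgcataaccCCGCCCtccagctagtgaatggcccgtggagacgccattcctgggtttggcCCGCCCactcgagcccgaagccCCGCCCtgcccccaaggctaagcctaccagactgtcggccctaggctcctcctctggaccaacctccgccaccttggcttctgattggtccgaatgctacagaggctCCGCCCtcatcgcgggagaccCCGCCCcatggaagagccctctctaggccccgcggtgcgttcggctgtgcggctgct
Adcy5, chr16:35154614-35154913, plus strand: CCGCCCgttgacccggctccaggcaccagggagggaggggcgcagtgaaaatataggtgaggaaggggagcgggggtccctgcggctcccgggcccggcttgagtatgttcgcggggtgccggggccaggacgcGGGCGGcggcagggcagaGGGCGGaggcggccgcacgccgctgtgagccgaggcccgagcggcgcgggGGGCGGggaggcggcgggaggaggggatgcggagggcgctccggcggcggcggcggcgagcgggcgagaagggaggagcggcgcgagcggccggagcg
The window of Gng7 holds 5 GC boxes and that of Adcy5 holds 4, at a base composition of 63.7% and 79.0% G and C. A second Gng7 start holds 0 GC boxes and 1 TGACG core. Of all 32851 windows, 35.7% hold a GC box, 1.79% the full cAMP response element and 20.8% its core. Among the 22 windows of the 8 genes, 7 hold a GC box, from 6 genes, and none the full element. These letters describe the sequence and say nothing of what bound there.

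The 3 phosphodiesterases had lower means in the mutants, with groups that overlapped. Pde10a (ENSMUSG00000023868; chromosome 17, 8525372 to 8986648, plus strand), which degrades cAMP and cGMP and is typical of projection neurons, had 116, 136 and 113 FPKM in the mutants, against 117, 147 and 138 FPKM in the controls. Control replicate 1 lay with the lower mutants, and the log2 fold change was -0.14 (95% interval -0.42 to 0.14, limma adjusted p = 0.888). It ran from -0.24 to -0.07 with 1 library left out. Pde1b (ENSMUSG00000022489; chromosome 15, 103503034 to 103530052, plus strand), an enzyme activated by calcium and calmodulin, had 65.7, 68.7 and 60.4 FPKM in the mutants, against 68.1, 66.4 and 81.8 FPKM in the controls. Control replicate 3 stood above all other libraries, and without it the log2 fold change was -0.05, against -0.15 with all 6.

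Pde7b (ENSMUSG00000019990; chromosome 10, 20398004 to 20725078, minus strand), specific for cAMP, had 31.3, 35.0 and 31.9 FPKM in the mutants, against 32.2, 44.7 and 39.5 FPKM in the controls. The controls spread most of all the groups, with a coefficient of variation of 16.2%, and their replicate 1 lay inside the mutant range. The log2 fold change was -0.23 ± 0.13 (SE), with a limma adjusted p of 0.888. It ran from -0.36 without control replicate 1 to -0.12 without control replicate 2.

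Ppp1r1b (ENSMUSG00000061718; chromosome 11, 98348404 to 98357796, plus strand), the DARPP-32 gene, had 192, 204 and 165 FPKM in the mutants, against 189, 197 and 216 FPKM in the controls. Mutant replicates 1 and 2 lay within the control range and replicate 3 below it. The mutant mean was 187 ± 19.6 FPKM and the control mean 200 ± 13.8 FPKM (SD, n = 3 each). This gave a log2 fold change of -0.10 ± 0.09 (SE; 95% interval -0.33 to 0.13, limma adjusted p = 0.898). Without mutant replicate 3 it was -0.02. The transcript 1700003D09Rik lies opposite Ppp1r1b and shares 460 exon bases with it, at a mean of 4.18 FPKM. The interval covers 0.79-fold to 1.09-fold in whole tissue. The pathway serves both classes of projection neuron, so the interval does not bound a change confined to 1 class.

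Arpp21 (ENSMUSG00000032503; chromosome 9, 112065091 to 112235938, minus strand), a cAMP-regulated phosphoprotein whose short form binds calmodulin, had 345, 332 and 309 FPKM in the mutants, against 392, 306 and 383 FPKM in the controls. Control replicate 2 was the lowest of all 6 libraries and the other controls were the highest, so the groups overlapped. Its log2 fold change was -0.13 (95% interval -0.39 to 0.14, limma adjusted p = 0.888) and ran from -0.24 without control replicate 2 to -0.06 without control replicate 1. The transcript 2900079G21Rik lies opposite Arpp21 and shares 580 exon bases with it, at a mean of 22.7 FPKM.

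Arpp19 (ENSMUSG00000007656; chromosome 9, 75037614 to 75060313, plus strand) encodes a PKA substrate that, once phosphorylated by the kinase Mastl, inhibits protein phosphatase 2A. It had 71.1, 72.8 and 69.8 FPKM in the mutants, against 76.7, 75.0 and 71.6 FPKM in the controls, and mutant replicate 2 lay above control replicate 3. The mutants had the smallest coefficient of variation of any group among the 10 genes (2.16%). On FPKM the log2 fold change was -0.06 (95% interval -0.16 to 0.04, limma adjusted p = 0.888).

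Ptpn5 (ENSMUSG00000030854; chromosome 7, 47077795 to 47133684, minus strand), the striatum-enriched phosphatase STEP, removes phosphate from Fyn, MAP kinases and glutamate receptor subunits. Its FPKM was 51.5, 52.8 and 42.5 in the mutants, against 48.8, 43.5 and 55.8 in the controls. The groups had almost the same mean (48.9 ± 5.60 FPKM in mutants and 49.4 ± 6.18 FPKM in controls, SD, n = 3 each). With a log2 fold change of -0.01 (95% interval -0.32 to 0.29, limma adjusted p = 0.996), it took either sign as single libraries were left out, from -0.10 to 0.09.

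**Figure D3:**
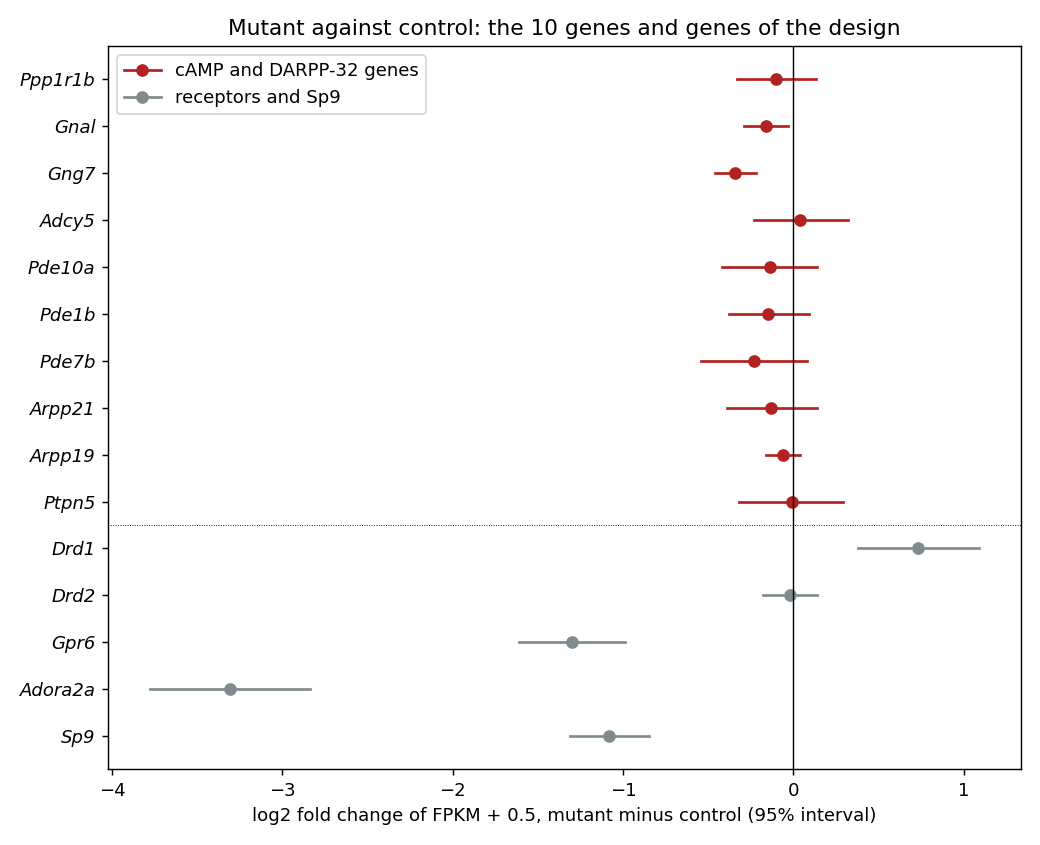
Log2 fold change (FPKM + 0.5, mutant minus control) with its 95% interval from limma, for the 10 genes in red and for Sp9 and 4 receptors in grey. Gng7 at -0.34 and Gnal at -0.16 were the members whose interval lay below 0, and Adora2a stood at -3.31.

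The pathway around these genes was followed with 8 further lists of 111 genes, of which 109 had a row and 100 passed the filter. Of the 100, 1 fell and 0 rose at an adjusted p of 0.05 (limma), and the median log2 fold change was 0.00. At an unadjusted p under 0.05, 12 were lower and 5 higher, against 2.99% and 2.65% of all genes. Of the 12, 4 came from the list of receptors, which holds genes of indirect pathway cells. The lists were chosen with earlier results of these data known, so these counts are not an independent test of the pathway. The 1 that fell was Adora2a, from the list of 14 receptors, 11 of them tested, and its call was lost when any 1 control library was left out. On scaled counts 0.143% of all genes passed, and Gpr6 was among them. Gpr6, a receptor that stimulates cAMP, had 10.8, 7.74 and 8.77 FPKM in the mutants, against 24.4, 21.6 and 23.0 FPKM in the controls (limma adjusted p = 0.0758 on FPKM and 0.00635 on scaled counts). Drd1 had 37.7, 42.7 and 37.6 FPKM in the mutants and 27.0, 18.8 and 25.3 FPKM in the controls, and did not pass on either measure (adjusted p = 0.566 and 0.0950).

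In the other lists no gene passed with limma after adjustment, so the genes given here are those with the smallest p. Of 18 other G protein genes, Ric8a and Ric8b included, 3 were lower at an unadjusted p under 0.05, against 2.99% of all genes. Gnao1, the abundant inhibitory-type alpha subunit, averaged 320 ± 8.59 FPKM in the mutants and 354 ± 9.32 FPKM in the controls (SD, n = 3 each), and Gng2 averaged 254 ± 8.13 FPKM in the mutants and 277 ± 7.87 FPKM in the controls. The groups lay apart for both genes, with the mutants lower, as they did for 8.14% of genes averaging 20 FPKM or more. On scaled counts the unadjusted limma p of Gng2 was 0.078. For Gnas, the stimulatory alpha subunit, the log2 fold change was -0.12 on FPKM and 0.08 on scaled counts, so its direction depended on the measure.

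Of 6 tested adenylyl cyclases besides Adcy5, Adcy1 had the smallest p. It had 93.0, 95.6 and 80.0 FPKM in the mutants, against 102, 108 and 109 FPKM in the controls (log2 fold change -0.25 ± 0.08, SE, limma adjusted p = 0.795). Adcy9 averaged 5.45 ± 0.158 FPKM in the mutants and 6.05 ± 0.205 FPKM in the controls, and Adcy2 averaged 4.32 ± 0.341 FPKM in the mutants and 3.64 ± 0.517 FPKM in the controls (SD, n = 3 each).

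Of 13 tested phosphodiesterases besides the 3 above, 2 were lower and 1 higher at an unadjusted p under 0.05, against 2.99% and 2.65% of all genes. Pde1c, a relative of Pde1b, had 3.96, 4.25 and 3.33 FPKM in the mutants, against 5.13, 5.72 and 6.44 FPKM in the controls (log2 fold change -0.53 ± 0.12, SE, limma adjusted p = 0.688). Pde8b, which is specific for cAMP, had 10.6, 8.62 and 9.47 FPKM in the mutants, against 8.21, 4.90 and 6.70 FPKM in the controls (0.52 ± 0.19, adjusted p = 0.858). Pde4d averaged 24.5 ± 1.08 FPKM in the mutants and 27.7 ± 2.00 FPKM in the controls (SD, n = 3 each). The median log2 fold change of this list was 0.07, on the other side of 0 from the 3 phosphodiesterases described first.

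The list of 17 PKA subunits, inhibitors and anchors, which also held Rapgef2, Rapgef3 and Rapgef4, had a median log2 fold change of 0.05. Akap5, which anchors PKA near the membrane, had 29.6, 31.1 and 25.4 FPKM in the mutants, against 23.9, 20.1 and 22.6 FPKM in the controls (0.36 ± 0.10, SE, limma adjusted p = 0.763). Another anchor, Akap12, averaged 9.31 ± 0.537 FPKM in the mutants and 10.6 ± 0.323 FPKM in the controls, and Akap7 averaged 13.6 ± 0.958 FPKM in the mutants and 11.5 ± 1.24 FPKM in the controls (SD, n = 3 each). None of the subunit genes themselves was past an unadjusted p of 0.05. Prkaca, a catalytic subunit gene, had 60.1, 60.8 and 58.7 FPKM in the mutants and 57.0, 54.5 and 59.6 FPKM in the controls.

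Of 18 tested kinases, phosphatases and inhibitors around DARPP-32 and the ARPP proteins, Mastl, the Arpp19 kinase, had the smallest p. It was listed at 0.933, 0.661 and 0.863 FPKM in the mutants, against 0.491, 0.464 and 0.383 FPKM in the controls (log2 fold change 0.48, limma adjusted p = 0.833), levels close to the filter. Ppp1ca, a catalytic subunit of the phosphatase that DARPP-32 inhibits, averaged 146 ± 0.724 FPKM in the mutants and 155 ± 1.97 FPKM in the controls, and Csnk2a1, a casein kinase 2 subunit, averaged 73.5 ± 2.33 FPKM in the mutants and 78.2 ± 1.46 FPKM in the controls (SD, n = 3 each). Among 8 tested substrates and relatives of Ptpn5, Ptprr, a phosphatase that acts on MAP kinases, averaged 11.5 ± 0.752 FPKM in the mutants and 9.92 ± 0.325 FPKM in the controls (adjusted p = 0.828). Fyn averaged 92.1 ± 2.06 FPKM in the mutants and 95.4 ± 2.03 FPKM in the controls, and Gria2 averaged 181 ± 3.83 FPKM in the mutants and 173 ± 10.9 FPKM in the controls. None of 9 genes of the CREB family and its coactivators was past an unadjusted p of 0.05. Crtc1, a coactivator, averaged 38.9 ± 0.587 FPKM in the mutants and 41.1 ± 0.672 FPKM in the controls, Crtc3 averaged 6.40 ± 0.686 FPKM in the mutants and 7.62 ± 1.34 FPKM in the controls, and Ep300 averaged 21.7 ± 0.618 FPKM in the mutants and 20.8 ± 0.619 FPKM in the controls.

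Mutant replicate 3 was the lowest of the 6 libraries for 8 of the 10 genes and the lowest mutant for 9, Pde7b being the exception. The same library was lowest for 18.6% of all 16666 genes and for 25.1% of the 5390 genes averaging 20 FPKM or more. Its median deviation over the 10 genes from the mean of the 6 libraries was -0.18 on the log2 scale. The median deviation was -0.04 in mutant replicate 1 and 0.00 in mutant replicate 2, against 0.00, 0.04 and 0.16 in control replicates 1 to 3. Markers of other cells differed between the same libraries. The summed FPKM of 7 cortical glutamatergic genes, such as Neurod6 and Tbr1, was 34.5, 8.20 and 54.5 in the mutants, against 19.7, 22.2 and 7.17 in the controls, highest in mutant replicate 3 and lowest in control replicate 3. The 8 progenitor and neuroblast genes summed to 331, 295 and 371 FPKM in the mutants, against 339, 309 and 294 FPKM in the controls. The summed level of 6 astrocyte and radial glia genes ran from 576 to 710 FPKM in the mutants and from 522 to 651 FPKM in the controls. The 5 oligodendrocyte lineage genes ran from 56.8 to 80.1 FPKM in the mutants and from 58.6 to 78.7 FPKM in the controls, the 5 microglia genes from 20.2 to 22.0 FPKM in the mutants and from 18.6 to 25.4 FPKM in the controls, and the 6 vessel and meningeal genes from 34.0 to 38.7 FPKM in the mutants and from 30.9 to 36.6 FPKM in the controls. No marker of any list was at 0 in a library. Without mutant replicate 3, the log2 fold change of Gng7 was -0.32 and that of Gnal -0.11. The part of these markers in the other differences was not tested.

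Some marker sums of neurons also stood apart or nearly so. The 7 interneuron genes summed to 493, 494 and 408 FPKM in the mutants and 317, 431 and 381 FPKM in the controls. The 10 genes of both projection neuron classes, which include Ppp1r1b, summed to 1462, 1397 and 1362 FPKM in the mutants, against 1557, 1497 and 1579 FPKM in the controls, with no overlap. The 6 direct pathway genes summed to 490, 440 and 478 FPKM in the mutants and 432, 455 and 462 FPKM in the controls. Tac1 was the largest part of that sum, averaging 254 FPKM in the mutants and 256 FPKM in the controls. Of the 6, 3 were higher in the mutants without overlap on FPKM and 1 was lower. Over all 16666 genes, 11.4% had groups without overlap in either direction, and 6.05% with the mutants lower. On scaled counts the groups of Pdyn overlapped. Mean FPKM in mutants and controls was 39.3 and 23.7 for Drd1, 24.2 and 17.0 for Pdyn and 37.6 and 27.7 for Sfxn1. For Isl1, the lower gene, it was 54.7 and 64.3. None of the 6 passed the adjusted threshold with limma. The 6 indirect pathway genes summed to 96.1, 101 and 75.5 FPKM in the mutants and 222, 198 and 213 FPKM in the controls. The part of these marker sums in the lower values of Gng7 and Gnal was not tested.

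**Figure D4:**
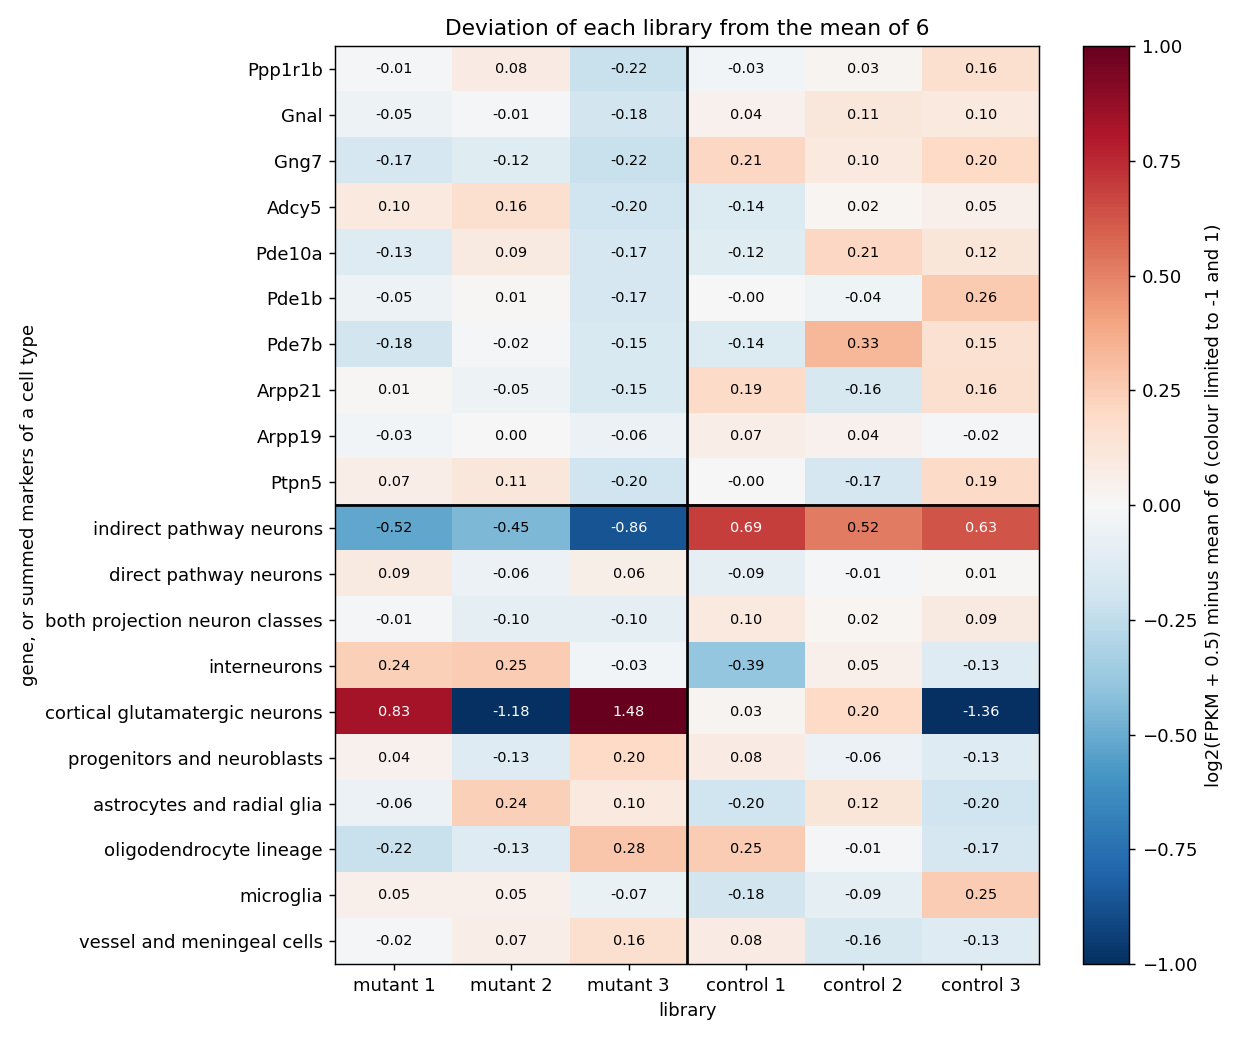
Deviation of each library from the mean of the 6 on the log2(FPKM + 0.5) scale, for the 10 genes above the line and for the summed markers of each cell type below it (Ppp1r1b left out of the sum), with mutant libraries at left and control libraries at right. Mutant replicate 3 was low for most of the 10 genes and high for cortical glutamatergic markers (1.48), whereas Gng7 was below the mean in all 3 mutants.

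**Figure D5:**
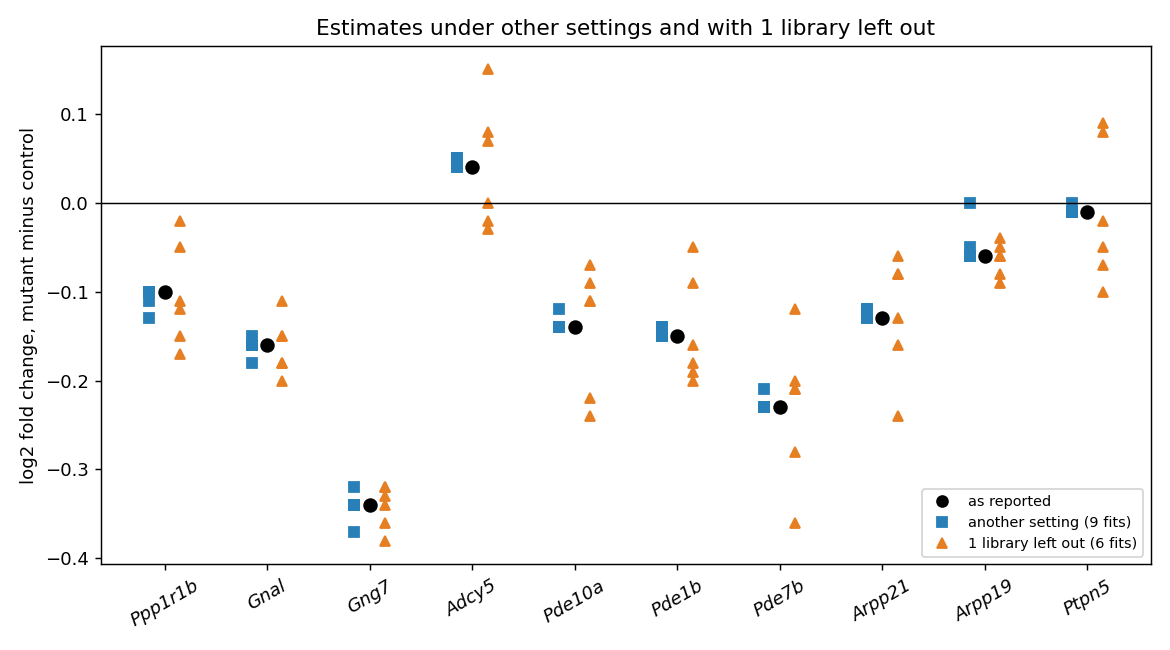
Log2 fold change of each gene (mutant minus control) as reported (black), under 9 other settings (blue) and with 1 library left out (orange, 6 fits). Gng7 stayed between -0.38 and -0.32, while Adcy5 and Ptpn5 took both signs when a library was left out.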

How the data were processed

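Total RNA of newborn striatum was measured in 3 mutant and 3 control libraries. The authors' table holds FPKM values and count columns per Ensembl gene, per the file headers. TopHat (version not given), Cufflinks 2.1.1 and build GRCm38.p4 are named per the submitters' processing notes; the sources used here do not give the annotation release, strandedness or treatment of multi-mapped reads. The deposited count columns are not whole, so they were used as a signal, called scaled counts, and no count test was run.

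Symbols and positions came from GENCODE M21 (GRCm38), which matched 46483 of 47062 identifiers, and promoter windows from RefSeq. Columns were assigned to libraries by the codes in the labels. With limma 3.58.1 in R 4.3.3, log2(FPKM + 0.5) was fitted over all 6 libraries with a variance trend, for the 16666 genes averaging 0.5 FPKM or more. P-values are two-sided, adjusted over all of them, with a threshold of 0.05. This scale understates the changes of low genes. Single genes also had an exact permutation test (scipy 1.17.1). The fit was run on simulated data as a check of the code, which does not give its power for changes as small as those of the 10 genes. The 10 genes, the pathway and marker lists and the rule for named genes (the 10; Sp9, Drd1, Drd2, Adora2a; from each list those past the threshold, otherwise the 3 smallest p) were chosen with earlier results of these data known. Prkaca, Neurod6, Tbr1, Bcl11b, Foxp1 and the relatives ranked by level were named outside that rule. The alternatives tried were a pseudocount of 0.1 or 1, a filter at 1 FPKM or none, quantile or median-ratio normalization, a replicate block, robust limma, log2(scaled count + 1) where scaled counts averaged 10 or more, and leaving out each library. Gpr52 and Pde2a, from the lists, were not analysed here, and 1 listed gene is not reported here.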

Additional observations from a re-analysis of the deposited data

How the results depend on the processing

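None of the 10 genes passed an adjusted p of 0.05 in any of the 15 alternatives (limma), and 8 of them kept their direction in all of these. Adcy5 (-0.03 to 0.15) and Ptpn5 (-0.10 to 0.09) changed sign with 1 library left out, Adcy5 without control replicate 1 or mutant replicate 2 and Ptpn5 without control replicate 3 or mutant replicate 3. For Gng7 the adjusted p was lowest on scaled counts (0.0893) and highest with the replicate block (0.868), and the log2 fold change ran from -0.38 to -0.32. Over all genes, 10 passed as reported, 47 with no filter, 23 on scaled counts, 5 with the replicate block, and 12 to 21 with 1 library left out (16 without control replicate 1, 20 without control replicate 3, 18 and 21 without mutant replicates 2 and 3). Of the other pathway genes, 1 passed as reported, 3 on scaled counts, 2 with robust limma and 0 with the replicate block. None passed either without any 1 of the controls, so the call of Adora2a was then lost. The cause was not tested. The labels do not say that replicate numbers pair the libraries. The deviations of same-numbered libraries had correlations of 0.002, 0.037 and 0.043, against -0.068 to 0.033 for the other pairs. Not every library correlated best with its own number. These values do not settle whether the libraries were paired, and the block also leaves fewer degrees of freedom.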

Other observations

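The FPKM and scaled counts of Arpp19 ordered the libraries differently. Its scaled counts were 3061, 2716 and 2581 in mutant replicates 1 to 3, against 2590, 3029 and 2759 in control replicates 1 to 3, and the log2 fold change on that scale was -0.00. The scaled count per FPKM of Arpp19 was 43.1, 37.3 and 37.0 in the mutants and 33.8, 40.4 and 38.5 in the controls, 1.28 times as high in the highest library as in the lowest. For the other 9 genes that ratio was at most 1.05.

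The row of Mir128-2, a microRNA gene within Arpp21 on the same strand, was listed at 0 in every library, as was that of Mir7056 within Ptpn5. The rows of the small nuclear RNA genes Gm25179, overlapping Adcy5, and Gm23512, overlapping Gnal, were also at 0. Whether RNAs this small were captured was not tested, so these zeros do not show that the microRNAs were absent.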
